A study of Mus musculus with 6 samples.

Results

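DPPA4 binding was mapped by CUT&RUN in mouse embryonic stem cells (ESCs), and the regions described here are those inside introns that were bound in GFP-negative cells and carried no called peak in GFP-positive cells. Of 97623 regions obtained by merging the peaks of both cell states on chromosomes 1 to 19, 18871 were of this kind (19.3%, Wilson 95% interval 19.1 to 19.6), and they are called members below. They made up 41.0% of the 45994 regions found in the GFP-negative list alone and 57% of the 33105 intronic regions. The members were chosen by their peak calls: a region had to hold peaks of the GFP-negative list and none of the GFP-positive list, and its midpoint had to lie inside a GENCODE vM21 gene body, outside all exons and outside the promoter windows, which ran from 2.5 kb before to 0.5 kb after each transcript start. The remaining intronic regions were 7669 found in both lists (shared intronic regions) and 6565 found in the GFP-positive list alone.

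All samples were cells of the line EHMT2-dTAG-mcherry-mervl-gfp on a BL6/129 hybrid background, grown in medium with FBS and LIF. In this line EHMT2, the enzyme that places H3K9me2, carries a degradation tag, and GFP is driven by the promoter of the MERVL retrovirus. Every sample, IgG controls included, had been exposed to dTAG for 72 h, so EHMT2-depleted ESCs (GFP-negative) were compared with EHMT2-depleted 2-cell-like cells, or 2CLCs (GFP-positive), and no group with intact EHMT2 entered the comparison. The 6 samples were 4 DPPA4 libraries, 2 from each sorted population, and 2 IgG libraries, of which 1 came from GFP-negative and 1 from bulk cells. The 4 DPPA4 libraries were represented by 2 peak lists, each pooled over its 2 libraries, with 81913 GFP-negative and 53110 GFP-positive peaks on the chromosomes used. No spread between replicates could therefore be given for any value, the number of reads behind each list was unknown, and a site that is bound in both states but called in one list cannot be told apart from a state-specific site.

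DPPA4 is a small nuclear protein with a SAP DNA-binding domain that acts with its partner DPPA2 in ESCs and early embryos, where the pair is known for priming promoters of developmental genes and for activating the MERVL and 2-cell programme. Introns, and first introns in particular, house many enhancers. In ESCs such enhancers are bound by the pluripotency factors OCT4, SOX2, ESRRB and KLF4, each of which recognises a short DNA motif, and by TEAD proteins, the DNA-binding partners of the Hippo effector YAP. OCT4 reads the octamer, SOX2 a short element of its own, and both together bind a composite of the adjoining elements.

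The sequence from 50 bp before to 50 bp after the summit, the base of highest signal in a peak, is shown for 2 of the strongest members in single-copy sequence. All sequences were read from the plus strand of the mm10 genome in its RefSeq release (GRCm38.p6), and capitals mark matches to any of the 22 motifs searched (spelled out with their shares below). They are the summits in Zfp423 (chr8:87716553-87716653) and Map2k3os (chr11:60923124-60923224).
Zfp423: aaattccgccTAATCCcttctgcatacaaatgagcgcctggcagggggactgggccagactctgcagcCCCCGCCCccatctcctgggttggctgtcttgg
Map2k3os: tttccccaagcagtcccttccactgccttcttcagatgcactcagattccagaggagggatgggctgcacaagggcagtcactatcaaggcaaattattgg
Only the Zfp423 summit held matches in this stretch, to the OTX and SP1 motifs.

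The strongest member of each of 6 naive pluripotency genes is shown next, because these genes maintain the cell state in which the members were called. They lay in Tfcp2l1 (chr1:118648097-118648197), Esrrb (chr12:86498833-86498933), Fgf4 (chr7:144851463-144851563), Nr5a2 (chr1:136957831-136957931), Nanog (chr6:122712997-122713097) and Stat3 (chr11:100930907-100931007).
Tfcp2l1: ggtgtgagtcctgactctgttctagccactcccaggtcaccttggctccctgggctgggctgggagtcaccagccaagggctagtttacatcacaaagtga
Esrrb: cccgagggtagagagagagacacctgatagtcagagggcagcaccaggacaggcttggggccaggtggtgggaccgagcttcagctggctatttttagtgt
Fgf4: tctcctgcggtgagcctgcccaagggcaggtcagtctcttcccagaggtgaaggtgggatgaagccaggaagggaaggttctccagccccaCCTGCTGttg
Nr5a2: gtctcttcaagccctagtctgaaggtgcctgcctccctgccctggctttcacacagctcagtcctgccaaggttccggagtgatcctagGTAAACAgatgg
Nanog: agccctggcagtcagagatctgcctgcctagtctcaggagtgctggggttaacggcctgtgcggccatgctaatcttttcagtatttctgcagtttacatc
Stat3: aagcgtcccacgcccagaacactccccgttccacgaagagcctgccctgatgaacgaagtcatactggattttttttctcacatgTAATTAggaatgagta
None of these 6 sequences held a match to the OCT4, SOX, composite, ESRRB or KLF motif, and those of Fgf4, Nr5a2 and Stat3 held a ZIC, a FOX and a homeodomain match, respectively.

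Members that do hold a pluripotency motif or, in 1 case, the TEAD motif are shown for comparison. They are, for each motif, the strongest further single-copy members with a match within this distance of the summit, and they were chosen after the values were seen. The OCT4-SOX2 composite is shown in Zer1 (chr2:30119865-30119965), Dgkg (chr16:22637441-22637541) and Ppp2r2d (chr7:138850260-138850360), the ESRRB motif in Slc2a3 (chr6:122770525-122770625) and Pard3b (chr1:62181779-62181879), the KLF motif in Gm44618 (chr7:28656595-28656695) and Nfib (chr4:82400636-82400736), and the TEAD motif in Tab1 (chr15:80159410-80159510).
Zer1: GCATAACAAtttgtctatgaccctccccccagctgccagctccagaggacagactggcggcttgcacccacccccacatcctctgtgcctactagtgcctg
Dgkg: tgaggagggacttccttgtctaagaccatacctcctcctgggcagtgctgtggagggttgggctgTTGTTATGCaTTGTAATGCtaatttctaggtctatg
Ppp2r2d: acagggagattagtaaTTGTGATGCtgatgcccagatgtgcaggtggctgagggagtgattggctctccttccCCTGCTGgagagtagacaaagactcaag
Slc2a3: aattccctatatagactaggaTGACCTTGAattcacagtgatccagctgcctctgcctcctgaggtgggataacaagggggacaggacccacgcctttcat
Pard3b: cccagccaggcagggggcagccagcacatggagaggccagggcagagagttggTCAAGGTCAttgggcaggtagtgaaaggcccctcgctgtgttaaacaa
Gm44618: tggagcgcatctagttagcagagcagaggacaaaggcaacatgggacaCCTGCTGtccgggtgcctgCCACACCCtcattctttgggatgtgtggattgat
Nfib: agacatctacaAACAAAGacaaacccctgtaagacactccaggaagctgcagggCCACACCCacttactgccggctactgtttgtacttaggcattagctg
Tab1: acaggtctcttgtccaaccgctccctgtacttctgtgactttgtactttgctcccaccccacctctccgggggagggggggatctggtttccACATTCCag
The Dgkg summit held 2 composite matches and the Nfib summit a SOX match beside its KLF match. These members had −log10 q values of 25 (Zer1), 23.9 (Dgkg), 21.4 (Ppp2r2d), 24.5 (Slc2a3), 17.3 (Pard3b), 50.7 (Gm44618), 39.9 (Nfib) and 37.7 (Tab1), where q is the authors' false discovery rate of a peak.

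The members were narrow and mostly weak peaks. Their width had a median of 473 bp (quartiles 299 and 728 bp, highest 5111 bp), and each held a single peak. The authors' fold enrichment over local background had a median of 3.62, with 10% of members above 5.84 and a highest value of 19.7. The −log10 q had a median of 2.49 (quartiles 1.71 and 4.29), and 79.8% of members lay under 5. Shared intronic regions were wider and stronger, with medians of 1086 bp, 5.26-fold and 6.33, while GFP-positive-only intronic regions had medians of 555 bp, 3.51-fold and 2.04. Because these values chose the members, they are given as a description without a test.

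The borders of the rule were narrow. The weakest members, in Gm47771, Smarcc2 and Myh10, had a −log10 q of 1.30, the lowest value in the list. The member in Rhpn1 abutted a GFP-positive peak (0 bp between them), and those in Cers1 and Abr lay 2 and 3 bp from one. Just outside the rule, shared intronic regions in 4930519G04Rik, Pef1 and Nt5c2 owed their class to an overlap of 9, 12 and 13 bp. Members within 100 bp of a GFP-positive peak numbered 73, and 51 of the 7011 shared intronic regions made of 1 peak from each list overlapped by under 100 bp. The gap to the nearest GFP-positive peak had a median of 9424 bp over all members, with 10.2% of members within 1 kb and 51.4% within 10 kb.

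Members lay in unique, repeat-poor sequence. The summit base was soft-masked, the mark of repeats and low-complexity sequence in the reference, in 16.9% of members, 35.0% of shared and 42.0% of GFP-positive-only intronic regions. A grid of fixed intronic points, spaced 10 kb apart and picked by the same position rule (93513 windows), gave 29.6%. The members thus lay 25 points below the GFP-positive-only regions, a difference of −25 with a Newcombe 95% interval of −26.4 to −23.7, and 12.7 points below the grid (−12.7, −13.3 to −12.1). Multi-copy summits, where the 31-mers of the surrounding 200 bp occurred a median of 10 or more times in the genome, made up 2.24% of members, 21.7% of shared regions, 19% of GFP-positive-only regions and 6.80% of the grid. The difference between members and GFP-positive-only regions was −16.8 points (−17.8 to −15.8). Single-copy sequence held 95.4% of members. These intervals, like all below, cover counting error only, treat neighbouring regions as independent and are not adjusted for the number of comparisons.

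Members were GC-rich but rarely CpG-rich. Median GC over the 200 bp at the summit was 52.5% in members, 56.5% in shared regions, 50% in GFP-positive-only regions and 42.5% in the grid. A GC of 50% or more was found in 67.8% of members and 16.5% of grid windows, a difference of 51.3 points (50.6 to 52.0), and in 83.4% of shared and 51.4% of GFP-positive-only regions. CpG-rich windows, with that GC and a ratio of observed to expected CpG of 0.6 or more, as in CpG islands, made up 3.29% of members against 19.9% of shared regions, 4.97% of GFP-positive-only regions and 0.473% of the grid.

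**Figure D1:**
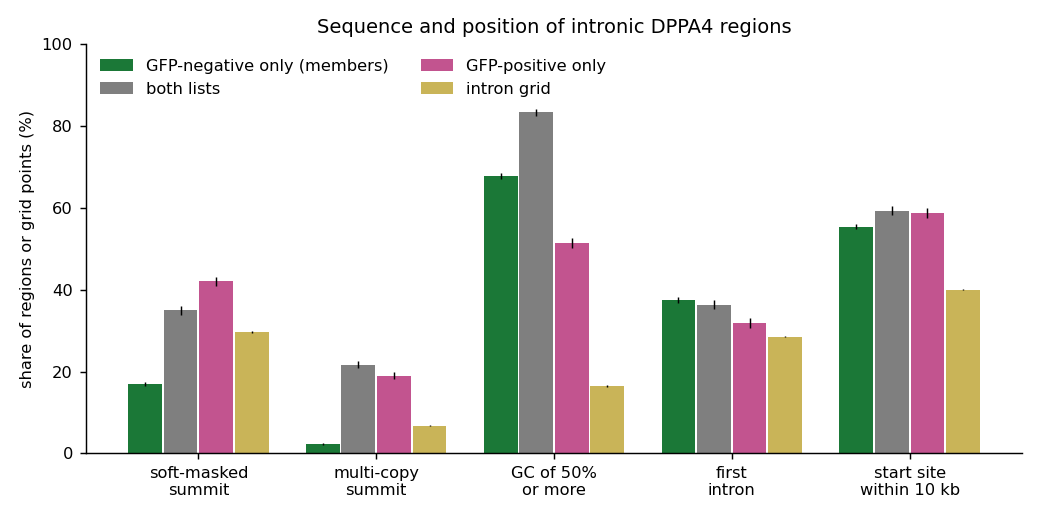
Share of members (18871), shared intronic regions (7669), GFP-positive-only intronic regions (6565) and intron grid points with each of 5 properties. Bars start at 0 and the lines are Wilson 95% intervals, and members show the lowest bars for soft-masked (16.9%) and multi-copy (2.24%) summits.

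The OCT4, SOX, composite, ESRRB and KLF motifs were matched more often at the members than in any of the other intronic sets, but the motif of PRDM14, also a naive pluripotency factor, was not. PRDM14 matches (GGTCTCTAA) were found in 0.127% of members, 0.117% of shared, 0.122% of GFP-positive-only and 0.144% of grid windows, and the difference from the grid held 0 (−0.0172, −0.0666 to 0.0487). The composite (TTGTNATGC) was matched on either strand in 1.48% of the 200 bp member windows, 0.626% of shared regions, 0.625% of GFP-positive-only regions and 0.569% of grid windows. With the grid weighted to the GC of the members, which evens out their GC, 0.373% of grid windows held it, and the members lay 1.11 points above (0.927 to 1.31). The octamer (ATGCAAAT) was matched in 2.37% of members, 1.02% of shared, 1.19% of GFP-positive-only and 0.626% of weighted grid windows, and members exceeded the weighted grid by 1.74 points (1.51 to 1.99). The SOX motif (CTTTGTT) was matched in 7.42% of members, 3.62% of shared, 4.22% of GFP-positive-only and 3.57% of weighted grid windows, a difference from the weighted grid of 3.85 points (3.41 to 4.30). These 3 motifs overlap in letters, since an octamer or SOX match can be part of a composite site.

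Motifs of the orphan receptor ESRRB and of the KLF factors were also more frequent. The ESRRB motif (TCAAGGTCA) was matched in 1.35% of members, 0.717% of shared, 0.777% of GFP-positive-only and 0.489% of weighted grid windows, and members lay 0.862 points above the weighted grid (0.680 to 1.05). The KLF motif (GGGTGTGG) was matched in 6.75% of members, 5.18% of shared, 3.09% of GFP-positive-only and 2.56% of weighted grid windows, 4.19 points above the weighted grid (3.78 to 4.60). Against the shared regions the octamer, SOX and composite motifs stayed higher in members after the shared regions were weighted to the members' GC, by 0.756 (0.327 to 1.14), 2.29 (1.57 to 2.97) and 0.446 points (0.0968 to 0.747). The intervals for ESRRB (0.251, −0.102 to 0.554) and KLF (0.525, −0.240 to 1.24) held 0 in that comparison, which was added after the data were seen. Any of the OCT4, SOX, composite, ESRRB and KLF motifs, a group of 5 that was formed after the values were seen and leaves out PRDM14, was present in 17.9% of members (17.4 to 18.5), 10.5% of shared (9.84 to 11.2) and 9.58% of GFP-positive-only regions (8.89 to 10.3), and in 9.20% of unweighted grid windows (9.02 to 9.39). Most members thus held none of these exact letters at their summit. In lists limited to the 10000 strongest peaks each, 781 intronic regions were GFP-negative-only. Their differences from the unweighted grid held 0 for SOX (1.41 points, −0.200 to 3.45) and ESRRB (0.313, −0.105 to 1.21). Each list was cut before merging, so these regions can include shared ones whose GFP-positive peak fell below the cut.

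Among the other motifs, the TEAD motif (ACATTCC) was matched in 6.07% of members against 3.39% of shared, 2.74% of GFP-positive-only and 2.72% of weighted grid windows, and the members lay 3.35 points above the weighted grid (2.96 to 3.75) and 3.33 points above the GFP-positive-only regions (2.79 to 3.84). The ZIC motif (CAGCAGG) was matched in 12.6% of members and 7.34% of GFP-positive-only regions, a difference of 5.22 points (4.42 to 6.0). Shared regions held it in 10.9%, and the difference of 0.753 points after GC weighting held 0 (−0.255 to 1.72). The STAT motif (TTCCNGGAA) was matched in 0.954% of members and 0.411% of GFP-positive-only regions, a difference of 0.543 points (0.316 to 0.739), and in 0.626% of shared regions, where the GC-weighted difference again held 0 (0.166, −0.138 to 0.419). SP1 (GGGCGGGG) and CTCF (AGGGGGCG) matches were found in 4.65% and 1.57% of members, below the 7.04% and 2.92% of shared regions and above the 1.57% and 0.533% of GFP-positive-only regions. With the shared regions weighted to the members' GC, the SP1 difference turned direction and held 0 (0.085, −0.577 to 0.698), while CTCF stayed lower in members (−0.890, −1.37 to −0.463).

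The YY1, OTX and DUX motifs were rarer at the members than in one or both of the other region sets. Multi-copy summits made up 21.7% of shared and 19% of GFP-positive-only regions but 2.24% of members. A motif inside a repeat can therefore be counted once per copy in those sets. No motif comparison between region sets was limited to single-copy summits, so the part of repeats in these shares was not tested. The YY1 motif (AAGATGGC) was matched in 1.29% of members but in 10.4% of shared intronic regions, a difference of −9.11 points (−9.83 to −8.43). With the shared regions weighted to the members' GC it was −1.78 points (−2.30 to −1.31). In GFP-positive-only regions 2.18% held it. The OTX motif (GGATTA) was matched in 5.79% of members and 13.6% of GFP-positive-only regions, a difference of −7.77 points (−8.68 to −6.89). In shared regions it was matched in 5.28%, from which the members differed by 0.506 points (−0.110 to 1.09), or by −1.80 (−2.61 to −1.04) after GC weighting. The DUX motif (TGATTCAAT), bound by the factor that drives the 2-cell programme, was matched in 14 members (0.0742%) and in 0.350% of GFP-positive-only regions, a difference of −0.276 points (−0.454 to −0.149). The 0.104% of shared regions with a DUX match did not differ from the members beyond counting error (−0.0301, −0.136 to 0.0418). GATA matches (AGATAAG) were found in 1.62% of members and 1.69% of GFP-positive-only regions, and this difference held 0 (−0.0692, −0.451 to 0.273).

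The remaining motifs were FOX (GTAAACA), AP-1 (TGANTCA), E-box (CACGTG), homeodomain (TAATTA), NRF1 (GCGCATGC), ETS (CCGGAAGT) and CREB (TGACGTCA). Their shares of members were 2.34%, 7.35%, 3.41%, 2.69%, 0.811%, 0.360% and 0.238%, against 3.10%, 5.96%, 2.12%, 7.17%, 0.236%, 0.111% and 0.109% of unweighted grid windows, in that order. For the motifs above, the unweighted grid shares were 1.51% (octamer), 5.76% (SOX), 0.456% (ESRRB), 1.26% (KLF), 2.76% (TEAD), 4.26% (ZIC), 0.522% (STAT), 0.510% (SP1), 0.186% (CTCF), 1.59% (YY1), 8.29% (OTX), 0.152% (DUX) and 3.0% (GATA). Against the weighted grid, AP-1 (2.34 points), NRF1 (0.457) and ETS (0.17) stayed higher in members, and FOX (0.422) and homeodomain (0.632) became higher. The E-box (0.237, −0.102 to 0.58) and CREB (0.0338, −0.0551 to 0.128) differences held 0. CREB matches were rarer in members than in shared (0.417%) and GFP-positive-only regions (0.396%). ETS matches were rarer in members than in shared regions (0.795%). Over all 22 motifs, members lay above the weighted grid in 15, below it in 3 and within counting error of it in 4. They lay above the GFP-positive-only regions in 11 motifs, below them in 4 and within counting error in 7. A match to these letters is a description of the sequence and does not show that the factor was bound.

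**Figure D2:**
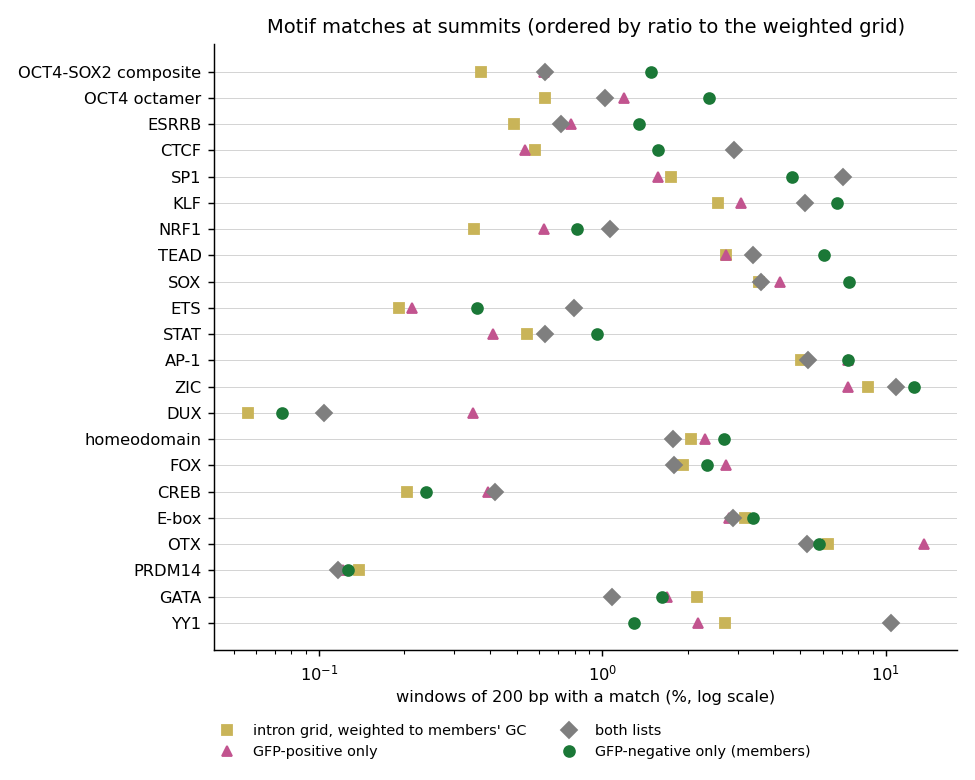
Share of 200 bp summit windows with a match to each of 22 motifs (log axis) in members, shared and GFP-positive-only intronic regions and in grid windows weighted to the members' GC, ordered by the ratio of members to weighted grid. The composite (1.48% of members against 0.373% of the weighted grid) and the octamer (2.37% against 0.626%) stand at the top. YY1 (1.29% of members against 2.71% of the weighted grid, with 10.4% in shared regions) stands at the bottom.

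Matches to several motifs were more frequent at the summits of the members than beside them. Positions within 50 bp of the summit were compared with positions 200 to 300 bp downstream along the plus strand in the same regions, a comparison added after the data were seen. The composite was matched in 0.922% of members near the summit (Wilson interval 0.795 to 1.07) and in 47 members (0.187% to 0.331%) in the outer stretch, a ratio of 3.70. The ratio was 4.30 for KLF (4.54% of members near the summit), 2.86 for TEAD (3.97%), 2.69 for the octamer (1.40%), 2.44 for ESRRB (0.917%) and 1.80 for SOX (4.08%). In shared intronic regions it was 2.15 for the composite, 3.65 for KLF, 1.81 for TEAD, 2.0 for ESRRB and 1.08 for SOX, and in GFP-positive-only regions 1.24, 2.23, 1.14, 1.19 and 1.03. The octamer was matched in 0.678% of shared regions near the summit and 0.3% in the outer stretch, and its ratio in GFP-positive-only regions was 1.78. The highest ratio in members was that of CTCF (4.65, with 1.13% near the summit), which was 5.46 in shared regions and 2.78 in GFP-positive-only ones. For SP1 it was 3.82 in members, 3.92 in shared and 1.48 in GFP-positive-only regions. These ratios were not tested against each other. Shared regions were also wider (median 1086 bp against 473 bp in members), so the outer stretch can lie inside the region more often in that set. The inner and outer stretches were not matched for GC. The excess of members over the grid at a GC of 50% or more was 51.3 points in windows of 200 bp and 43.2 points in windows of 500 bp. The part of GC in these ratios was not tested. The AT-only homeodomain motif was rarer at the summits of members than in the outer stretch (1.16% against 2.02% to 2.45%, ratio 0.521).

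**Figure D3:**
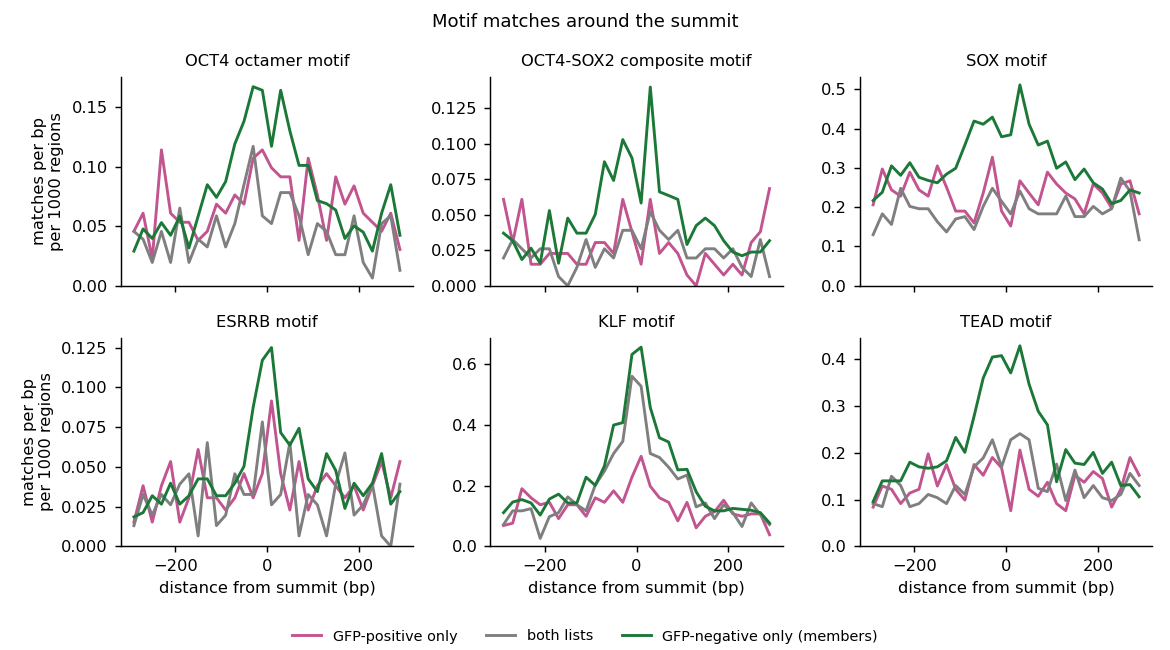
Matches per bp per 1000 regions in bins of 20 bp from 300 bp before to 300 bp after the summit, for 6 motifs in members, shared and GFP-positive-only intronic regions. The members form a peak at the summit for all 6 motifs, and for TEAD and SOX the other sets stay lower throughout the central 50 bp on either side.

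Motif frequency also differed with the strength of the members. In the 4707 weakest members, the lowest quartile by −log10 q (1.30 to 1.70), 12.9% held any of the 5 pluripotency motifs (Wilson interval 12.0 to 13.9), and in the 4732 strongest (4.29 and above) 25.2% did (24.0 to 26.5). The composite was matched in 0.701% of the weakest and 2.49% of the strongest quartile, the octamer in 1.42% and 3.87%, SOX in 5.86% and 10.1%, KLF in 4.55% and 9.93%, and TEAD in 4.91% and 7.78%. ESRRB, with 1.13% (0.862 to 1.47) and 1.5% (1.19 to 1.89), had overlapping intervals. Median width was 357 bp in the weakest and 708 bp in the strongest quartile, and the share with a GC of 50% or more was 65% and 70.8%, so width and GC moved with strength as well. Their part in the motif shares was not tested.

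**Figure D4:**
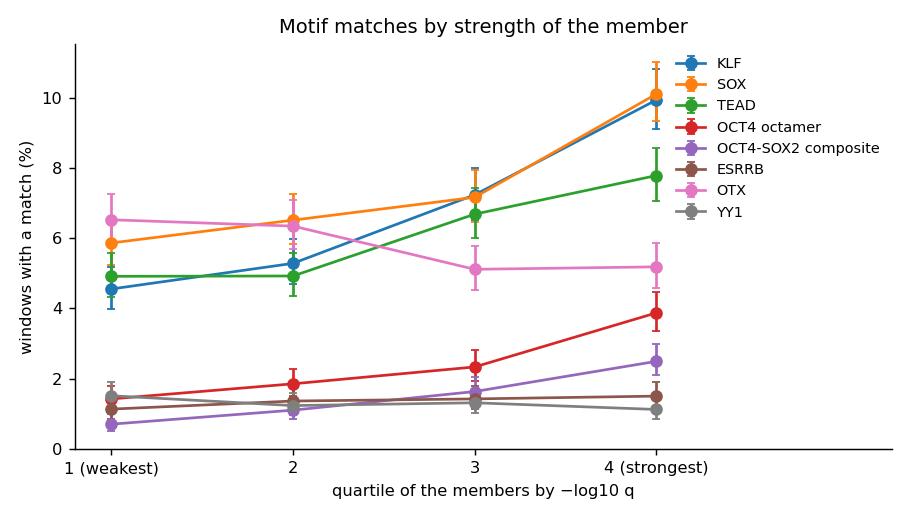
Share of 200 bp summit windows with a match to each of 8 motifs in the quartiles of the members by −log10 q, with Wilson 95% intervals. KLF, SOX, TEAD, octamer and composite shares are highest in the strongest quartile (9.93% for KLF), while OTX and YY1 shares are not.

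The members lay toward the 5′ part of genes. The host gene's first intron held 37.5% of members with an intron number, 36.3% of shared regions, 31.8% of GFP-positive-only regions and 28.5% of grid points. The difference was 9.0 points from the grid (8.30 to 9.71) and 5.70 points from the GFP-positive-only regions (4.35 to 7.02), whereas that from the shared regions held 0 (1.18, −0.111 to 2.47). Introns from number 5 onward held 29% of members and 34.8% of grid points. The distance to the nearest transcript start of any gene had a median of 8528 bp in members and 13981 bp in the grid. A start lay within 10 kb of 55.4% of members, 15.4 points more than the 40% of grid points (14.7 to 16.1). The share was 59.3% in shared and 58.7% in GFP-positive-only regions, from which the members differed by −3.87 (−5.17 to −2.56) and −3.33 points (−4.71 to −1.94). The strongest quartile was farther from starts than the weakest, with 52.0% against 58.1% within 10 kb.

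Another member lay within 5 kb of 41.7% of members, within 20 kb of 70.6% and within 50 kb of 84%, with a median distance of 7263 bp to the nearest. The spacing of the other sets was not computed, so these distances have no baseline. A shared region lay within 10 kb of 43.1%. Per megabase of eligible intron, the intronic sequence in which a member could lie, there were 20.1 members over the 19 chromosomes. The density was highest on chromosome 11 (33.5), 17 (30.9), 8 (30.6) and 4 (28.5) and lowest on chromosome 3 (10.6) and 14 (12.3).

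DPPA4 regions at the promoters of the host genes came from the same peak lists that chose the members, so the following shares are a description. The intronic region being scored was not left out. One whose edge reached into a promoter window of its host was counted there, as for the member in Cdx2. This can raise the share of each set for its own kind of region, and grid points have no such part. A promoter window of a host gene overlapped a region of both lists for 78.2% of members, 76.9% of shared, 76.6% of GFP-positive-only intronic regions and 61.8% of grid points. A GFP-negative-only region lay at the host promoter for 54.4% of members, 43.8% of shared and 33.5% of GFP-positive-only intronic regions, and a GFP-positive-only region for 15.1%, 19.8% and 31.1%. No region of any kind lay at the host promoter for 7.80% of members and 22.2% of grid points.

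At least 1 member lay in 7316 of 27670 genes with eligible intron (26.4%), and in 5871 of 18164 protein-coding genes (32.3%). These shares are the background for the gene groups below, together with the pooled density of 2.14 members per 100 kb of eligible intron in protein-coding genes. A protein-coding host was found for 89.8% of members. The share of genes with a member rose with intron length, from 12.3% of protein-coding genes under 10 kb of eligible intron to 37.9% of those from 10 to 50 kb, 61.1% from 50 to 200 kb and 76.5% of longer ones, while the pooled density fell from 3.98 to 3.22, 2.59 and 1.15 members per 100 kb. Of the protein-coding hosts, 2762 held 1 member, 2147 held 2 to 4, and 962 held 5 or more.

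The genes are given next by their number of members. The predicted gene Gm20388 (chr8:119910841-124345722) held 426 members, but its annotated body spans 4.43 Mb and runs over many other genes, and 247 of its members had another host. Fgfr2, the receptor for fibroblast growth factors, held 74 members in an annotated body of 2.96 Mb, and 50 of these had another host. Members whose hosts all spanned over 2 Mb numbered 215, which leaves 18656 without them. Among genes of ordinary span, the RNA-binding protein gene Msi2 held 67 members (19 per 100 kb) and Gse1, a gene inside the Gm20388 body, 62 (19.3). Transcription factor genes followed with Camta1 (54, 6.21 per 100 kb), the zinc finger genes Zfhx3 (52, 5.43), Casz1 (39, 31.5), Tshz2 (38, 9.02) and Zfp423 (34, 12.3). The immunoglobulin superfamily gene Igsf21 held 44 (20.8), the ArfGAP gene Agap1 38 (9.65), the ephrin receptor gene Ephb2 35 (20.6), and Rnf220, a ubiquitin ligase gene, 33 (16.9). The rest of the 20 highest were Pitpnc1 and Rbfox3 with 33 each, Dlgap4 and Sh3pxd2a with 32 each, Sept9 and Gm26904 with 31 each, and Nxn with 30.

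Among genes with at least 5 members the density was highest in Mmp14, a membrane-bound matrix metalloproteinase, with 6 members at 104 per 100 kb, followed by Mslnl (61.1), Sall3 (56.1), Cep131 (45.0), the antisense gene Gm21057 (44.6) and Smad7 (44.5), an inhibitor of TGF-beta signalling. Lrsam1, Fmnl1, Exog and Ppp2r5d followed with 42.0, 40.4, 40.3 and 39.3. Of these 10 genes, Smad7 and Lrsam1 held a shared intronic region, 1 each, and Smad7 a GFP-positive-only one. The 10 genes were picked for their member density and have short introns, from 5.75 kb (Mmp14) to 23.8 kb (Lrsam1) of eligible intron. Over all chromosomes there were 8.18 shared and 7.0 GFP-positive-only intronic regions per megabase of eligible intron, so few could fall in these genes.

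Naive pluripotency genes had the highest pooled density of the 14 gene groups. Of 19 such genes with eligible intron, 9 held a member (47.4%). Their 40 members, 21 of them in Esrrb, made up 10 per 100 kb of eligible intron. Shared intronic regions were dense in these genes too, with 12 in 399 kb against 7111 in 821306 kb over all protein-coding genes. GFP-positive-only intronic regions numbered 4. Median eligible intron was 4.72 kb, and protein-coding genes under 10 kb had a pooled density of 3.98 members per 100 kb. The median density over the 19 genes was 0, as over all genes. Esrrb, the gene of the orphan receptor, held 21 members, 14.4 per 100 kb, beside 2 shared and 1 GFP-positive-only intronic regions, and 15 of the 21 lay in its first intron. Their −log10 q ran from 1.44 over a median of 2.83 to 17.0, and their fold enrichment from 2.81 over 3.95 to 9.57. Tfcp2l1, whose product acts beside ESRRB in naive cells, held 6 members (14.4 per 100 kb), of which the strongest had a −log10 q of 29.2 and the next of 18.8, and no other intronic region. The nuclear receptor gene Nr5a2 held 4, and Nanog, the LIF effector gene Stat3 and the growth factor gene Fgf4 held 2 each, with highest −log10 q values of 5.19, 3.21, 2.52 and 5.27. Sall4, Prdm14 and Klf5 held 1 each, with values of 2.14, 2.3 and 1.67. Pou5f1, Klf2, Klf4 and Zfp42 held none, in 0.449, 0.501, 1.82 and 9.63 kb of eligible intron.

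**Figure D5:**
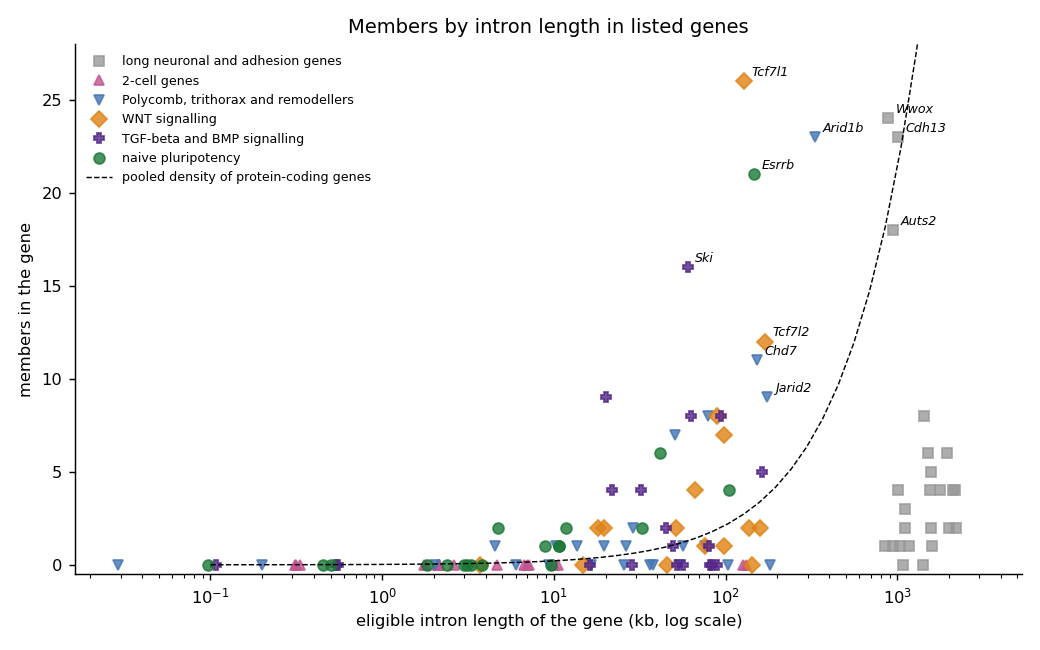
Members per gene against the gene's eligible intron length (log axis) for 6 of the gene groups. The dashed line is the pooled density of protein-coding genes (2.14 members per 100 kb), and Esrrb (21 members), Tcf7l1 (26) and Ski (16) lie above it while most long neuronal genes lie below it.

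Signalling pathways that act on the pluripotent state also held members, but their genes have long introns. Median eligible intron was 82.4 kb (WNT), 50.9 kb (TGF-beta and BMP) and 49.4 kb (LIF and FGF). Of all protein-coding genes, 37.9% with 10 to 50 kb and 61.1% with 50 to 200 kb held a member. For WNT signalling, 12 of 16 genes held a member (75%, 5.25 per 100 kb). Tcf7l1, the main repressor of WNT targets in ESCs, held 26 (20.3 per 100 kb), Tcf7l2 held 12, the co-receptor gene Lrp5 8 and Lef1 7. For TGF-beta and BMP signalling, 10 of 20 genes held a member (5.60 per 100 kb), with 16 in the SMAD corepressor gene Ski (highest −log10 q 33.2), 9 in Smad7, and 8 each in Smad6 and Smad3. Smad6 and Smad7 encode inhibitory SMADs and Smad3 a receptor-activated one.

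For LIF and FGF signalling, 12 of 20 genes held a member (3.48 per 100 kb), or 11 of 19 without Fgfr2 (4.55 per 100 kb). The receptor gene Fgfr1, with a highest −log10 q of 39.6, the LIF receptor gene Lifr (15.8), and the adaptor and exchange factor genes Grb2 (2.55) and Sos1 (5.07) held 7 members each. Among trophoblast genes, 7 of 14 held a member (3.72 per 100 kb), or 6 of 13 without Fgfr2 (5.09). Besides Fgfr2 and Zfhx3 these were led by Tead4, the TEAD gene of the trophoblast lineage, with 7 members and a highest −log10 q of 16.6. Cdx2 held 1 (−log10 q 7.84).

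Of the formative and primed pluripotency genes, 6 of 15 held a member (4.0 per 100 kb), led by the DNA methyltransferase gene Dnmt3a with 6, the ETS factor gene Etv5 with 5 and Grhl2 with 2. Zic2 held 1 in 0.186 kb of eligible intron. Gastrulation and endoderm genes lay below the pooled density, with a member in 4 of 14 (1.66 per 100 kb): 2 in Hnf4a and 1 each in Lhx1, Pdgfra and Gata4.

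Groups of chromatin regulators were counted in the same way. Of the Polycomb, trithorax and remodeller genes, 13 of 25 held a member (4.47 per 100 kb). Arid1b, a BAF complex subunit gene, held 23 (highest −log10 q 16.9), the remodeller gene Chd7 11, the Polycomb cofactor gene Jarid2 9, and Kdm2b 8. Of the DNA methylation genes, 6 of 12 held a member (4.71 per 100 kb). Dnmt3a held 6, Dnmt1 and Tet2 5 each, and Tet1, Tet3 and Trim28 1 each. Of the genes for H3K9 methylation and repression of the 2-cell programme, 7 of 20 held a member (35%, 2.24 per 100 kb). These values were close to the 32.3% and 2.14 per 100 kb of all protein-coding genes. The group was led by the zinc finger gene Zfp462 with 7 (highest −log10 q 13.5), Atf7ip with 3 and Kdm1a with 2. Wiz, Smchd1, Setdb1 and Trim28 held 1 each, with −log10 q values of 4.57, 2.84, 2.03 and 1.57.

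No member lay in the 20 genes of the 2-cell stage with eligible intron, among them the Zscan4, Obox and Usp17l genes, which held 4 shared and 18 GFP-positive-only intronic regions. Their median eligible intron was only 2.14 kb, and 12.3% of all protein-coding genes under 10 kb held a member. Obox1 held 5 and Obox3 3 of the latter, in 131 and 126 kb of eligible intron. The totals are sums over genes, and the bodies of Obox1 and Obox3 overlap, so a region inside both was counted for each. Many of the 2-cell genes have near-identical copies, so their regions cannot be assigned to a single gene. None lay in Dppa1, Dppa2, Dppa3, Dppa4 or Dppa5a, which together have 41 kb of eligible intron. Long neuronal and adhesion genes held members in 22 of 24 cases, but at 0.372 per 100 kb, with 24 in Wwox, 23 in Cdh13, 18 in Auts2 and 8 in Magi2. Genes of the tricarboxylic acid cycle, a group of housekeeping enzymes, held members in 5 of 15 cases (1.42 per 100 kb). Sdhb held 3, and Sdhc, Cs, Ogdh and Suclg2 1 each.

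The 9 strong members named here, with their −log10 q, were in Zfp423 (60.3), Map2k3os (59.2), the alanine transaminase gene Gpt2 (57), the planar cell polarity gene Vangl2 (54.4), Gm44618 (50.7), the alkaline phosphatase gene Alpl (49.6), the chromodomain gene Cdyl2 (49.6), the collagen XVIII gene Col18a1 (49.3) and Otx2os1 (48.7), an RNA from the strand opposite Otx2. Their fold enrichments ran from 11.8 (Col18a1) to 19.7 (Otx2os1), the highest of all members. Exact stretches of at least 25 bp shared with any other region were found for 5 of these members, and the longest was 71 bp in Gm44618. The member in Otx2os1 lay 155146 bp from the nearest GFP-positive peak, the farthest of the 9.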

How the data were processed

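Per the labels, CUT&RUN was done with an anti-DPPA4 antibody or IgG on live cells sorted by GFP. The authors trimmed reads with bbduk, aligned them with STAR (2.7.10), placing each multimapping read once, removed duplicates with Picard (2.26.0), dropped blacklisted regions and called peaks with MACS2 (2.2.6) on mm10, and whether IgG served as control was not given in the sources used here. SAMtools (1.14) and bedtools (2.30.0) are also named in the submitters' processing notes. Each deposited list pools 2 libraries. Fold enrichment was deposited as a ratio of summit signal to local background, and the deposited −log10 q is the authors' adjusted significance, with a lowest value of 1.30 (q of 0.05). Depth was unknown. IgG libraries were not analysed here, and 0 per-sample columns were left unused.

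Peaks sharing 1 bp were merged with Python (3.11.15), NumPy (2.4.6) and pandas (2.3.3). Genes came from GENCODE vM21 and sequence from GRCm38.p6, on which 0 peaks ran beyond a chromosome end. A region's sequence was read at the summit of its strongest GFP-negative peak (GFP-positive peak where there was no other). Grid points were 1 kb apart (935865) for position and 10 kb apart for sequence. GC weighting used bins of 5 points. Shares carry Wilson and their differences Newcombe 95% intervals, and no p-value was computed. Functions were tested on simulated data. Lists were described by counts and densities, without a set test. X-linked genes were left out by the rule. Named genes were the 20 hosts with the most members, the 10 densest with at least 5, the 10 strongest members, up to 4 genes a list and all naive pluripotency genes with a member. Some genes tied with the last of a list were named as well. Results of some items under this rule are not reported here. Members, motifs and lists were chosen with earlier results of these data known.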

Additional observations from a re-analysis of the deposited data

How the results depend on the processing

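No paired analysis was possible because both libraries of a cell state were merged into 1 list. Neither a replicate block nor leaving out a library could be run, and replicate error is unknown. Unknown read numbers limit every count of regions. Among 207 values recomputed under alternatives, 169 matched the reported one in direction and side (counts to within 1.5 times), 21 were weaker, 1 was stronger, 11 reversed and 5 moved.

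The number of members depended on peak strength. It was 3803 at a −log10 q of at least 5 and 781 in lists of the 10000 strongest peaks, and the genes with a member then numbered 2556 and 732. Those lists were cut before merging, so the 781 can include shared regions whose GFP-positive peak fell below the cut. Differences in soft-masked and multi-copy summits, GC, first introns and start sites kept their direction and side under all alternatives run. The motifs above the shared regions numbered 13, but 4 once the shared regions were weighted to the members' GC (octamer, SOX, composite and TEAD), an alternative added after the data were seen. Under that weighting, members minus shared regions reversed for OTX (−1.80 points, −2.61 to −1.04). The sign also changed for PRDM14 (−0.0347), FOX (−0.173), homeodomain (−0.204) and SP1 (0.085), but these intervals held 0. PRDM14 also reversed at a −log10 q of at least 5, where the interval again held 0 (−0.0226, −0.168 to 0.141). Against the GC-weighted grid, members reversed for FOX (0.422), homeodomain (0.632) and DUX (0.018), of which the DUX interval held 0 (−0.0311 to 0.0733). YY1 minus grid was 2.89 (1.65 to 4.58) in lists of the 10000 strongest peaks. Among summits that were not soft-masked it was 0.0521, with an interval that held 0 (−0.125 to 0.248). The causes were not tested. GC weighting re-weights whole windows, so other traits that go with GC can change with it.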

Other observations

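Words of 8 bases at the summits, counted with their reverse complements, gave a view that used no motif list. Of the words present in at least 1% of member windows, the 10 with the highest ratio of member to grid share all contained a CG. GCCCCGCC was present in 3.18% of members and 0.192% of grid windows (16.5 times as often), in 5.55% of shared intronic regions and in 0.762% of GFP-positive-only regions. GCCACGCC was present in 2.57% of members, 0.171% of the grid (15 times), 3.13% of shared and 1.23% of GFP-positive-only regions. The others were GAGGGCGC (12.3 times the grid), CCCGCCCA (12.1), GCGGGGCC (11.2), CTCCGCCC (11.0), GCCCGCCC (10.8), GCTCCGCC (10.7), CCGCCCAC (10.6) and AGCCCCGC (10). Each of these 10 words was more frequent in shared intronic regions than in members, and GCCCGCCC most of all, in 8.59% of shared regions against 1.32% of members. These words are rich in G and C as well as in CpG, the grid was not weighted for them, and of 5483 words in at least 1% of members only 65 held a CG.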
